A study of Homo sapiens with 12 samples.

Results

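NRF2 and oxidative stress genes were followed across 3 treatments of MDA-MB-231, an established human cell line of triple-negative breast cancer. The cells received for 48 h SAHA, compound 1 or a6, each at 2.5 µM, or DMSO as the control (Ctrl). SAHA, or vorinostat, inhibits histone deacetylases (HDACs), the enzymes that take acetyl groups off histones. The labels class SAHA and compound 1 as compounds with a single target and a6 as one with a pair of targets, HDACs and G-quadruplexes (G4s), which are stacked folds of guanine-rich DNA or RNA. There were 12 libraries, 3 for each of the 4 treatments. The 36 members are genes of the NRF2 pathway taken by symbol from the authors' 3 deposited comparison tables, which together hold 27146 genes. Of the 36 members, 35 had a row in the table for SAHA, 36 in that for compound 1 and 32 in that for a6. GPX2 had no row in the SAHA table, and ABCC2, AKR1B10, AKR1C2 and GPX2 had none in the a6 table.

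NRF2, the product of NFE2L2, is a transcription factor that binds antioxidant response elements together with a small MAF protein such as MAFG. In unstressed cells KEAP1 holds NRF2 in the cytoplasm and presents it to a ubiquitin ligase for breakdown. Electrophiles and oxidants modify cysteines of KEAP1, NRF2 then accumulates, and genes of glutathione and thioredoxin metabolism, NADPH supply, iron handling, drug export and carbonyl reduction are transcribed. Because NRF2 is controlled mainly at the protein level, its mRNA need not follow its activity.

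The tables give 1 mean normalized read count per gene over both groups of a comparison and no value per library, so the values here are group means and the depth of each library is unknown. The error of each value is the authors' standard error (SE) over 3 libraries a group. Group means follow from the mean count together with the fold change. They can be set side by side across tables because the Ctrl means of the tables differed, after a constant, with a log2 standard deviation between 0.00131 and 0.00326. The constant was not removed, and the median log2 ratio of Ctrl means, a6 comparison to SAHA comparison, was -0.032. An a6 mean beside Ctrl of the SAHA table thus reads slightly too low, and the deposited log2 fold changes do not hold this shift. A gene was called where the authors' DESeq2 Wald test gave an adjusted p, by Benjamini-Hochberg, under 0.05. The labels say that libraries are biological replicates and nothing on separate cultures, so p-values measure the spread between these libraries, which may be partly technical. Genes typical of the line were abundant in Ctrl, with computed mean normalized counts of 21149 for VIM, 20938 for AXL and 8262 for CD44, and ESR1 and PGR, absent in triple-negative cancer, stood at 0.660 and 0.337. Of 8 luminal breast genes expected to be low in the line, 7 had a row for compound 1. Their Ctrl means in that comparison summed to 17708, so at least 1 other luminal gene was abundant. The sum does not say how many were. No source used here says whether reads were counted by strand, so reads of a gene and of a gene on the other strand that shares its exons cannot be told apart.

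Some members carry the letters of the antioxidant response element close to their transcription start. The core motif searched was TGACNNNGC, on both strands, in RefSeq windows (GRCh38.p14) from 250 bases before to 50 bases after a start. It occurred in 4687 of 35116 windows of all genes, 13.3%. Of the 36 members, 27 had at least 1 window, 36 windows in all, and 10 of these windows, of 9 members, held the motif. These members were CBR1, EPHX1, GCLM, GPX2, GSTP1, KEAP1, ME1, PGD and TXNRD1. With an A required after the last letter, 3.18% of all windows held the motif, and so did windows of 7 members. The sites below are shown because the motif is the element through which NRF2 acts on its target genes, and because KEAP1 was called with SAHA. Each is 30 bases, 5′ to 3′ in the direction of transcription, with the motif, or its reverse complement, in capitals.
KEAP1, chr19:10502806-10502835, minus strand, motif on the transcribed direction, 54 bases before the start: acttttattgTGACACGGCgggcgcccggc
KEAP1, chr19:10502783-10502812, minus strand, motif on the opposite strand, 31 bases before the start: gcccggctctGCTTAGTCAtggtgacctgc
GCLM, chr1:93909445-93909474, minus strand, motif on the opposite strand: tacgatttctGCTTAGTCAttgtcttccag
GSTP1, chr11:67583736-67583765, plus strand, motif on the transcribed direction: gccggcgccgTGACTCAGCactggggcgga
ME1, chr6:83431169-83431198, minus strand, motif on the transcribed direction: tctcctgccaTGACTCAGCgcttctcgcag
TXNRD1, chr12:104286920-104286949, plus strand, motif on the opposite strand: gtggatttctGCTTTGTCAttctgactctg
CBR1, chr21:36069855-36069884, plus strand, motif on the opposite strand: tgcgggttctGCAAAGTCAggctagctggc
The KEAP1 motifs do not overlap each other, and the GCLM site and one KEAP1 site hold the same 9 capital letters. A start here is that of a RefSeq window, and the KEAP1, GSTP1 and TXNRD1 sites shown lie inside the annotated spans of these genes. A match of letters is a description of the window and not a measured binding site. Of the members shown here, KEAP1 alone was called with any compound.

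SAHA changed 6 of the 35 measured members, 17.1%, where 7.55% of all 18534 genes in the SAHA table were called. The members that rose were AKR1B10, AKR1C2 and AKR1C3, aldo-keto reductases that reduce carbonyls, and those that fell were KEAP1, the carbonyl reductase gene CBR3 and the exporter gene ABCC3. Counted by direction, 3 members rose against 4.53% of all genes and 3 fell against 3.02%. Of these, AKR1B10 has a row in the SAHA table only because of its level with SAHA, so that it had to differ, and without it 5 of 34 members were called, 14.7%. With the trend of fold changes on GC content removed, 3 of the 35 members were called, 8.57%, against 6.73% of all genes, which is near the background. At an adjusted p under 0.01, 2 of the 35 were called, 5.71%, against 4.42% of all genes. The median log2 fold change of the measured members was 0.01, and that of all genes -0.01, with 18 of the 35 members above 0. An unadjusted p under 0.05 in the authors' DESeq2 Wald test was reached by 9 members, 25.7%, and by 3418 of all genes, 18.4%. Among the genes of enzymes often used as a readout of NRF2, none of NQO1, HMOX1, GCLC, GCLM, TXNRD1 and SRXN1 was called with SAHA.

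**Figure D1:**
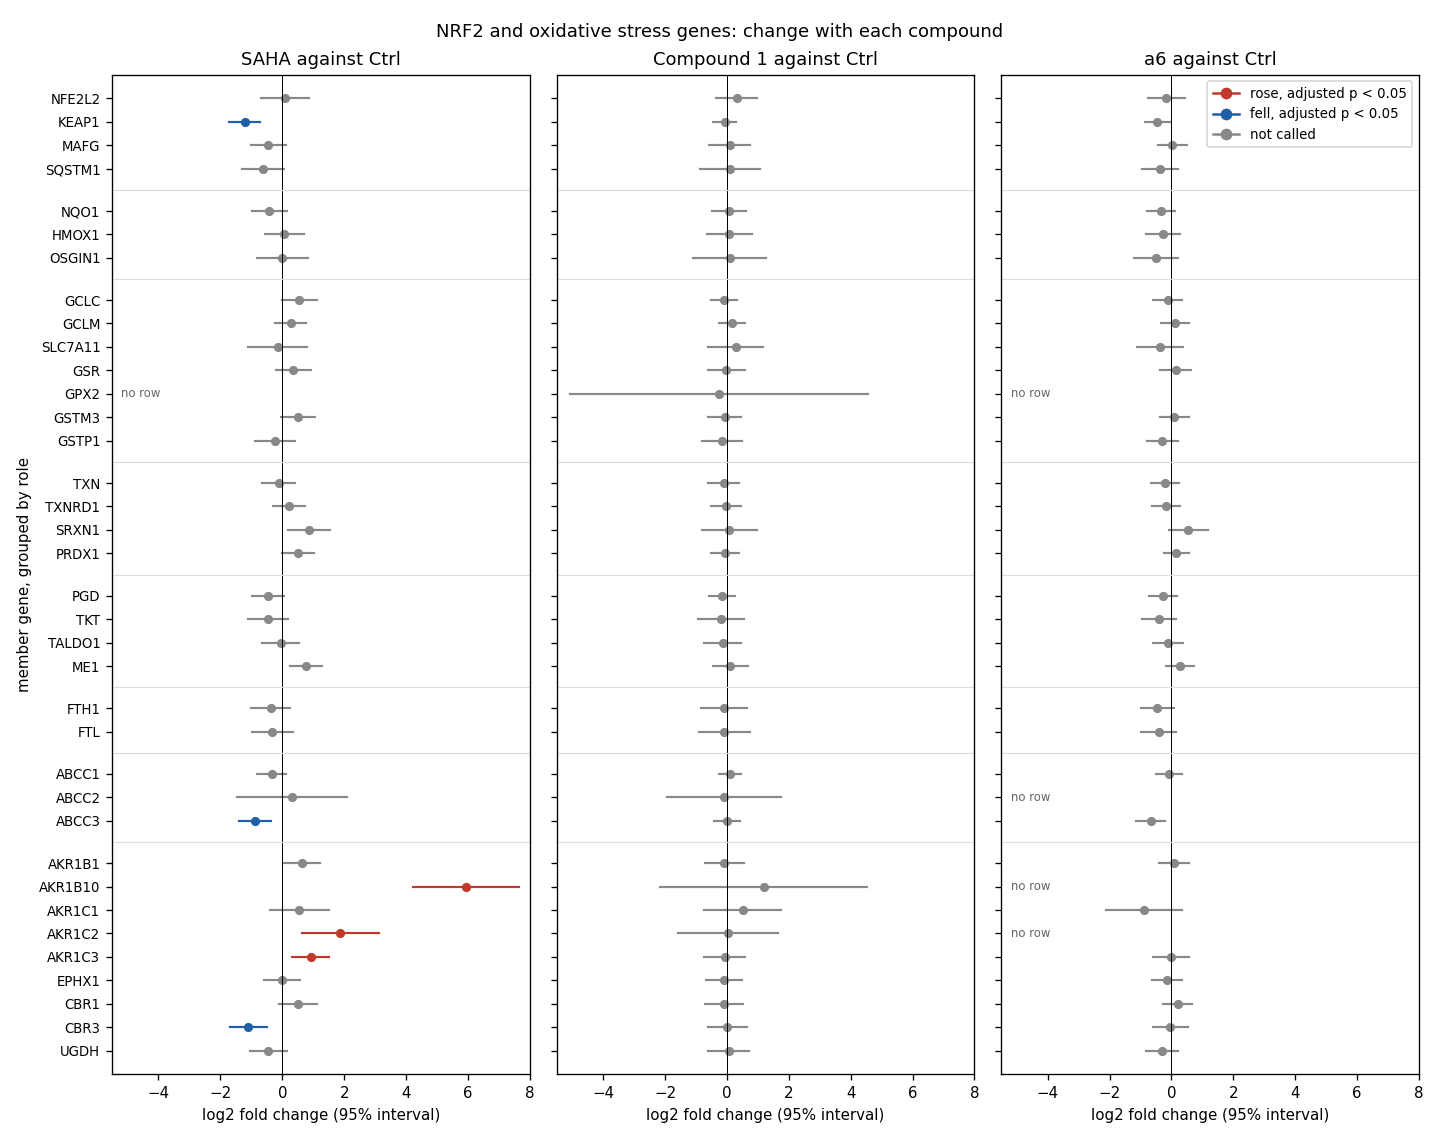
Log2 fold change against Ctrl of each member (rows, grouped by role) with SAHA, compound 1 and a6, from the authors' deposited tables. Points are estimates from 3 libraries a group, lines are 95% intervals from the standard error, red and blue mark an adjusted p under 0.05, and "no row" marks members without a value. With SAHA, 6 members are coloured; with compound 1 and with a6, 0 are.

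Among the regulators, KEAP1 was the member that changed with SAHA. KEAP1 lies at chromosome 19, 10486120 to 10503741, on the minus strand of GRCh38 and encodes the adaptor that presents NRF2 for breakdown. Computed from the authors' deposited tables, KEAP1 had a mean normalized count of 662 with SAHA, 1455 with compound 1 and 1094 with a6, against 1534 in Ctrl of the SAHA table. The SAHA mean was thus the lowest of the 4 groups. KEAP1 fell by 1.21 on the log2 scale with SAHA in the authors' deposited table (SE 0.25, adjusted p = 0.000119, DESeq2 Wald test), to 0.431 times the Ctrl level. With compound 1 the authors' deposited table gave it -0.07 (SE 0.19), and with a6 -0.46 (SE 0.21, unadjusted p = 0.0303, adjusted p = 0.571), neither past the threshold.

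NFE2L2, the gene of NRF2 itself, had computed means of 461 with SAHA, 538 with compound 1 and 376 with a6, against 431 in Ctrl of the SAHA table. On the log2 scale the authors' deposited tables gave it 0.10 (SE 0.40), 0.32 (SE 0.34) and -0.17 (SE 0.30) in that order of compounds, and the 95% interval with SAHA ran from -0.68 to 0.87. The 4 means lie close together relative to these errors, and a change of the size seen for KEAP1 lies outside the SAHA interval in both directions. Exons of NFE2L2 overlap those of other annotated genes on both strands. MAFG, the small MAF partner, averaged 1827 with SAHA and 2489 in Ctrl in the values computed from the authors' deposited table, a log2 fold change of -0.45 (SE 0.29, adjusted p = 0.452). SQSTM1 encodes p62, an autophagy receptor that binds KEAP1, and averaged 10791 with SAHA and 16578 in Ctrl, which is -0.62 on the log2 scale in the authors' deposited table (SE 0.35, adjusted p = 0.349). With compound 1, MAFG and SQSTM1 were at 0.09 and 0.10, and with a6 at 0.03 and -0.38, in the authors' deposited tables. All 3 tables thus leave these partners uncalled.

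The quinone and haem oxygenase genes were uncalled with SAHA, where 7.55% of all genes were called. NQO1, which reduces quinones by 2 electrons and is a widely used marker of NRF2 activity, averaged 2479 with SAHA, 3442 with compound 1 and 2568 with a6, against 3303 in Ctrl of the SAHA table, as computed from the authors' deposited tables. Its log2 fold changes were -0.41 (SE 0.29), 0.06 (SE 0.28) and -0.33 (SE 0.23) in the authors' deposited tables. HMOX1, haem oxygenase, averaged 328 with SAHA, 329 with compound 1 and 255 with a6, against 314 in Ctrl of the SAHA table. Its log2 fold change with SAHA was 0.07 (SE 0.33) in the authors' deposited table, with a 95% interval from -0.57 to 0.70, so a doubling or halving lies outside the interval. With a6 it was at -0.26 (SE 0.28). OSGIN1, an oxidative stress induced growth inhibitor, was at 0.01 with SAHA (SE 0.42), 0.09 with compound 1 (SE 0.60) and -0.49 with a6 (SE 0.36) in the authors' deposited tables.

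In the glutathione group, 0 of 6 measured members were called with SAHA, 4 were above 0 and 0 had an unadjusted p under 0.05 in the authors' DESeq2 Wald test. Of all genes 7.55% were called and 18.4% had such an unadjusted p, so counts of 0 among 6 say little about the group. GCLC, the catalytic subunit of the enzyme that starts glutathione synthesis, averaged 368 with SAHA and 251 in Ctrl, a log2 fold change of 0.55 in the authors' deposited table (SE 0.28, adjusted p = 0.275). GCLM, its modifier subunit, averaged 679 with SAHA and 564 in Ctrl, at 0.27 in the authors' deposited table (SE 0.26, adjusted p = 0.675). SLC7A11, the cystine importer, averaged 223 with SAHA, 302 with compound 1 and 187 with a6, against 247 in Ctrl of the SAHA table. Its standard errors of 0.49, 0.46 and 0.38 in the authors' deposited tables were larger than its log2 fold changes of -0.15, 0.28 and -0.37. GSR, glutathione reductase, and the glutathione transferases GSTM3 and GSTP1 were at 0.36, 0.50 and -0.24 with SAHA in the authors' deposited table. GPX2, a glutathione peroxidase of the gut lining, had a computed mean of 0.625 with compound 1 and 0.744 in Ctrl, so it was close to absent from these cells.

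The thioredoxin group had 0 of 4 members called with SAHA, and 1 had an unadjusted p under 0.05 in the authors' DESeq2 Wald test. With 7.55% of all genes called and 18.4% at such an unadjusted p, both counts are near the background. The member with the unadjusted p under 0.05 was SRXN1, sulfiredoxin, which repairs over-oxidized peroxiredoxins. SRXN1 averaged 359 with SAHA, 208 with compound 1 and 280 with a6, against 197 in Ctrl of the SAHA table, as computed from the authors' deposited tables. Its log2 fold changes there were 0.86 with SAHA (SE 0.35, adjusted p = 0.126), 0.08 with compound 1 (SE 0.45) and 0.54 with a6 (SE 0.32, adjusted p = 0.798). Its exons share 2292 bases with those of AL121758.1 on the same strand, so its counts depend on how shared reads were treated. TXNRD1, thioredoxin reductase, averaged 14818 with SAHA and 12805 in Ctrl, at 0.21 in the authors' deposited table (SE 0.26, adjusted p = 0.765). TXN, thioredoxin, and PRDX1, a peroxiredoxin, were at -0.11 and 0.51 with SAHA in the authors' deposited table.

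Of the 4 members that supply NADPH, 0 were called with SAHA, and ME1 came nearest with 1 unadjusted p under 0.05 in the group. Of all genes 7.55% were called and 18.4% had an unadjusted p under 0.05, so these counts are near the background. ME1, cytosolic malic enzyme, averaged 460 with SAHA, 294 with compound 1 and 321 with a6, against 272 in Ctrl of the SAHA table. Its log2 fold change with SAHA was 0.76 in the authors' deposited table (SE 0.27, adjusted p = 0.0554). PGD and TKT, enzymes of the pentose phosphate pathway, were both at -0.47 with SAHA (SE 0.27 and 0.33) in the authors' deposited table, and TALDO1 was at -0.06. ME1 thus lay above Ctrl and PGD and TKT below it, none past the threshold.

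The ferritin subunit genes, which store iron released by haem breakdown among other sources, were the most abundant members per kilobase of exon. Exon length here is that of all annotated exons of a gene merged, not the length of a transcript. It was 878 bases for FTL, 9507 for TKT and 7654 for SQSTM1, so the order of members depends on the annotation. Ctrl levels per kilobase, computed from the compound 1 table, were 34282 for FTL and 8865 for FTH1, with TXN next at 3253, while NFE2L2 stood at 72.3, SLC7A11 at 25.8, AKR1C2 at 1.43 and GPX2, the lowest, at 0.496. FTH1 averaged 13958 with SAHA, 16882 with compound 1 and 12800 with a6, against 18050 in Ctrl of the SAHA table. On the log2 scale the authors' deposited tables gave it -0.37 (SE 0.32), -0.09 (SE 0.38) and -0.46 (SE 0.27). FTL averaged 24218 with SAHA, 28532 with compound 1 and 22133 with a6, against 30197 in Ctrl of the SAHA table, at -0.32 (SE 0.34), -0.08 (SE 0.42) and -0.41 (SE 0.29) in the authors' deposited tables. Both ferritin genes had means below Ctrl with each compound, and 0 of these 6 values was called in the authors' DESeq2 Wald test. Of all genes, 7.55% were called with SAHA, 0% with compound 1 and 0.583% with a6.

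ABCC3 was the exporter gene that changed with SAHA. ABCC3 lies at chromosome 17, 50634777 to 50692252, on GRCh38 and encodes a multidrug resistance-associated protein that exports organic anions. Its computed mean was 462 with SAHA, 857 with compound 1 and 520 with a6, against 850 in Ctrl of the SAHA table. It fell by 0.88 on the log2 scale with SAHA in the authors' deposited table (SE 0.27, adjusted p = 0.0195), and removing the trend of fold changes on GC content ended the call (-0.76, adjusted p = 0.0609). The a6 value was -0.68 in the authors' deposited table (SE 0.25, unadjusted p = 0.00591, adjusted p = 0.275) and did not pass. ABCC1 and ABCC2, exporters of glutathione conjugates, were at -0.34 and 0.32 with SAHA in the authors' deposited table, and the ABCC2 mean was 8.10 with SAHA and 6.49 in Ctrl.

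Carbonyl and xenobiotic metabolism held 4 of the 6 members called with SAHA, out of 9 measured, where 7.55% of all genes were called. Without AKR1B10, which had to differ, 3 of 8 were called. AKR1B10, an aldo-keto reductase that reduces aldehydes such as retinal, had a computed mean of 85.6 with SAHA, 3.16 with compound 1 and no row for a6, against 1.41 in Ctrl of the SAHA table. The SAHA mean stood far above the others, which rest on very few reads. AKR1B10 lies at chromosome 7, 134527592 to 134541408, and rose by 5.93 on the log2 scale in the authors' deposited table (SE 0.88, adjusted p = 4.43e-09). That is 60.8-fold, with a 95% interval from 18.5-fold to 199.7-fold. The lowest mean count of any gene in the SAHA table was 2.44, above the Ctrl level of AKR1B10. Its paralog AKR1B1, aldose reductase, averaged 14293 with SAHA and 9184 in Ctrl, which is 0.64 on the log2 scale in the authors' deposited table (SE 0.30, adjusted p = 0.223).

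The AKR1C genes lie next to one another on chromosome 10 and reduce steroids and other ketones. AKR1C2, at 4987400 to 5018031, had a computed mean of 33.8 with SAHA and 9.46 with compound 1, against 9.17 in Ctrl of the SAHA table. It rose by 1.88 with SAHA in the authors' deposited table (SE 0.63, adjusted p = 0.0396). AKR1C3, at 5035354 to 5107686, averaged 860 with SAHA, 433 with compound 1 and 439 with a6, against 457 in Ctrl of the SAHA table, so the SAHA mean was the highest. It rose by 0.91 with SAHA in the authors' deposited table (SE 0.30, adjusted p = 0.0356). Removing the GC trend ended both calls, at 1.80 with adjusted p = 0.0576 for AKR1C2 and 0.83 with adjusted p = 0.0723 for AKR1C3. AKR1C1 averaged 45.9 with SAHA, 44.4 with compound 1 and 16.6 with a6, against 31.3 in Ctrl of the SAHA table. On the log2 scale the authors' deposited tables gave it 0.55 (SE 0.48), 0.51 (SE 0.63) and -0.89 (SE 0.62), none called. The AKR1C genes are close in sequence, and reads that match several of them make each value uncertain.

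CBR3 and CBR1 are neighbouring carbonyl reductase genes on chromosome 21. CBR3, at 36134912 to 36146566, averaged 109 with SAHA, 234 with compound 1 and 221 with a6, against 233 in Ctrl of the SAHA table. It fell by 1.09 with SAHA in the authors' deposited table (SE 0.31, adjusted p = 0.0104). CBR3 shares 493 exon bases with CBR3-AS1 on the opposite strand, and how far each gives its reads was not tested. CBR1 averaged 2913 with SAHA and 2061 in Ctrl, at 0.50 in the authors' deposited table (SE 0.31, adjusted p = 0.426). EPHX1, an epoxide hydrolase, and UGDH, which makes UDP-glucuronate for conjugation, were at -0.02 and -0.45 with SAHA in the authors' deposited table, neither called.

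**Figure D2:**
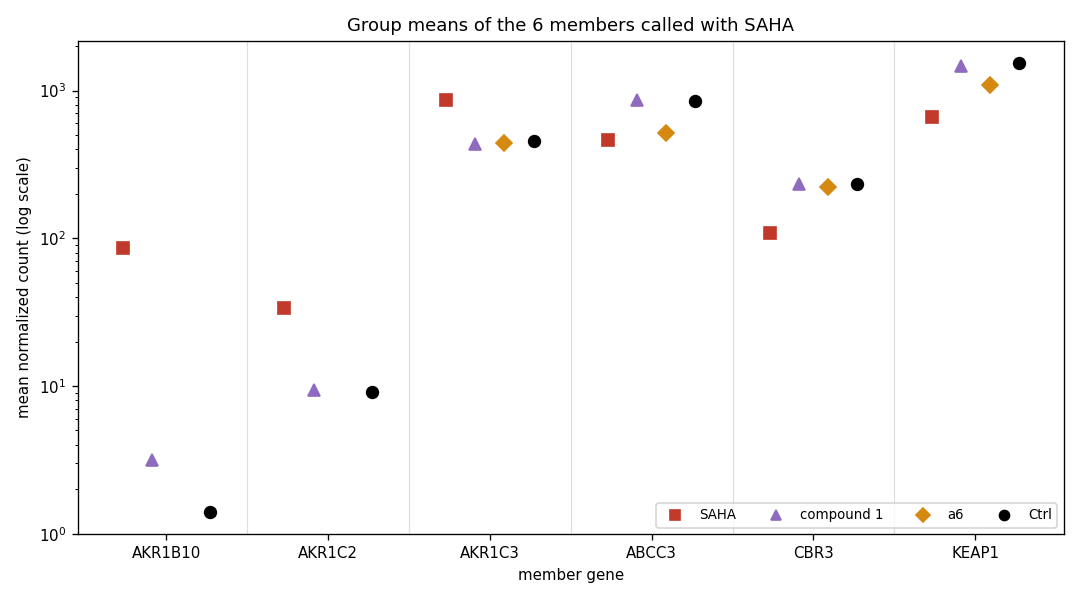
Mean normalized count (log axis) with SAHA, compound 1, a6 and in Ctrl for the 6 members called with SAHA, each mean over 3 libraries computed from the deposited tables. Ctrl is from the SAHA table, and AKR1B10 and AKR1C2 have no a6 value. The SAHA square is highest for the 3 aldo-keto reductases and lowest for ABCC3, CBR3 and KEAP1.

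The called members lay in the middle and lower part of the range of Ctrl levels. Per kilobase of all annotated exons merged, KEAP1 was the most abundant of them and ranked 16 of the 36 members. Of the 15 members ranked above it by this measure, 0 were called with SAHA. Over all genes 7.55% were called, so 0 of 15 is near the background. Per kilobase of exon, in Ctrl of the compound 1 table, AKR1B10 stood at 0.797 and AKR1C2 at 1.43, among the 4 lowest members, while AKR1C3 stood at 100.4, ABCC3 at 88.2, CBR3 at 198.9 and KEAP1 at 407.2. With a floor of 50 on the mean normalized count, which leaves out AKR1C2 and AKR1B10 among others, 4 of 31 members were called with SAHA, where 7.85% of genes were.

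**Figure D3:**
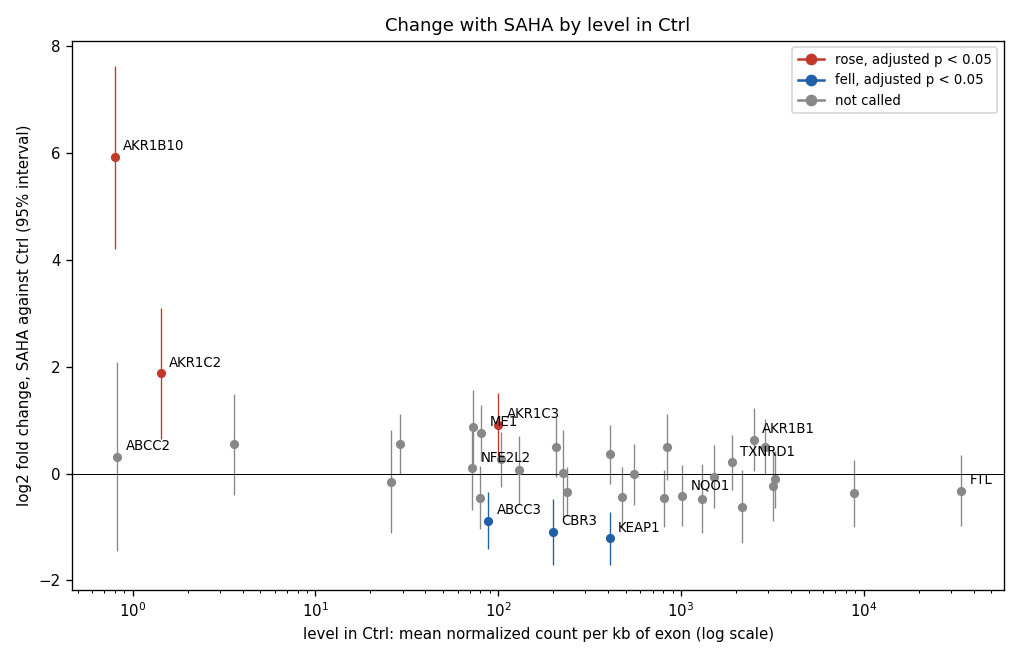
Log2 fold change of SAHA against Ctrl with its 95% interval, plotted against the level in Ctrl of the compound 1 table, as mean normalized count per kilobase of exon (log axis), for the 35 members with a SAHA value. AKR1B10 and AKR1C2 lie at the low end near 1 count per kilobase, and KEAP1, CBR3 and ABCC3 between 88.2 and 407.2.

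Compound 1 changed 0 of the 36 members in the authors' DESeq2 Wald test, and 0 had an unadjusted p under 0.05. The background was the same, with 0% of 27126 genes called and 54 with an unadjusted p under 0.05. That is far fewer than this limit gives with no change at all, so the test was conservative for compound 1. Over all genes the median SE was 0.606, and the median absolute log2 fold change 0.236. A count of 0 members therefore does not show that none changed. In the authors' deposited table the members ran on the log2 scale from -0.25 for GPX2 to 1.19 for AKR1B10, whose standard errors were 2.46 and 1.70, with a median of -0.02. Well-measured members lay close to Ctrl: GCLM averaged 636 with compound 1 and 564 in Ctrl, and TXNRD1 averaged 12629 with compound 1 and 12771 in Ctrl. GCLC, SRXN1 and NQO1 were at -0.09 (SE 0.21), 0.08 (SE 0.45) and 0.06 (SE 0.28) in the authors' deposited table. The 13 mitochondrially encoded protein genes, often read for RNA quality, had 0 of 13 above 0 with compound 1 and a median of -0.23, and the part of that shift in these values was not tested.

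With a6, 0 of the 32 measured members were called and 2, KEAP1 and ABCC3, had an unadjusted p under 0.05 in the authors' DESeq2 Wald test. Of all 15255 genes in the a6 table, 0.583% were called and 1131 had an unadjusted p under 0.05, so a count of 0 members is near the background. The measured members had a median log2 fold change of -0.18, and all genes of -0.03, with 23 of the 32 members below 0. The smallest adjusted p was 0.275, for ABCC3. GCLC averaged 226 with a6 and 245 in Ctrl of the a6 table, at -0.12 in the authors' deposited table (SE 0.24). GCLM averaged 594 with a6 and 552 in Ctrl of the a6 table, at 0.11 (SE 0.23), and TXNRD1 averaged 11015 with a6 and 12513 in that Ctrl, at -0.18 (SE 0.23). The members' values in the authors' deposited table ran from -0.89 for AKR1C1 to 0.54 for SRXN1. The lowest mean count in this table was 9.31. The 4 members without a row include 2 of the 3 that rose with SAHA, and their level with a6 was not analysed here.

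The compounds share a dose and a time, so each member was also compared between compounds, in 3 pairs with p-values adjusted over all genes of the 3 pairs together. The difference of the deposited log2 fold changes was tested with a two-sided z test, with errors combined as if independent. Since all 3 comparisons share the Ctrl libraries, this widens the error. The large errors of the compound 1 comparison also enter the pairs that hold compound 1. No member passed: 0 of 32 in a6 minus SAHA, 0 of 32 in a6 minus compound 1 and 0 of 35 in SAHA minus compound 1, with 3, 1 and 5 members at an unadjusted p under 0.05. Of all genes, 0.328%, 0.0459% and 0.799% were called in these pairs. The share of all genes at an unadjusted p under 0.05 was not computed, so the members' counts at that limit cannot be judged against a background.

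KEAP1 had the smallest adjusted p of the members in SAHA minus compound 1, with a difference of -1.14 from the authors' deposited tables (95% interval -1.76 to -0.52, adjusted p = 0.0620). An error correlation of 0.5 between fold changes, for the shared Ctrl, called KEAP1 (adjusted p = 0.000116), ABCC3 (0.0143) and CBR3 (0.0238) in this pair. That setting called 4.39% of all genes in the pair, against 0.799% with independent errors. AKR1B10 also passed (0.0459), but it has a row for SAHA only through its level with SAHA and supports nothing here. In a6 minus SAHA, KEAP1 differed by 0.76 (0.11 to 1.40, adjusted p = 0.766), CBR3 by 1.05 (0.22 to 1.88, adjusted p = 0.599) and AKR1C3 by -0.94 (-1.77 to -0.11, adjusted p = 0.835) between the authors' deposited tables. With that error correlation KEAP1 (adjusted p = 0.0460) and CBR3 (adjusted p = 0.0220) passed in a6 minus SAHA, where 3.30% of all genes did, against 0.328% with independent errors. ABCC3 differed by 0.20 in a6 minus SAHA (-0.51 to 0.92) and by -0.69 in a6 minus compound 1 (-1.33 to -0.06, adjusted p = 0.893). For NFE2L2 the interval in a6 minus SAHA ran from -1.24 to 0.71, so a value 2-fold lower with a6 than with SAHA lies inside it and one 2-fold higher lies outside. For KEAP1 and CBR3 the call in a6 minus SAHA thus depends on the error assumed for the shared Ctrl, and the other 30 members were uncalled under both.

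**Figure D4:**
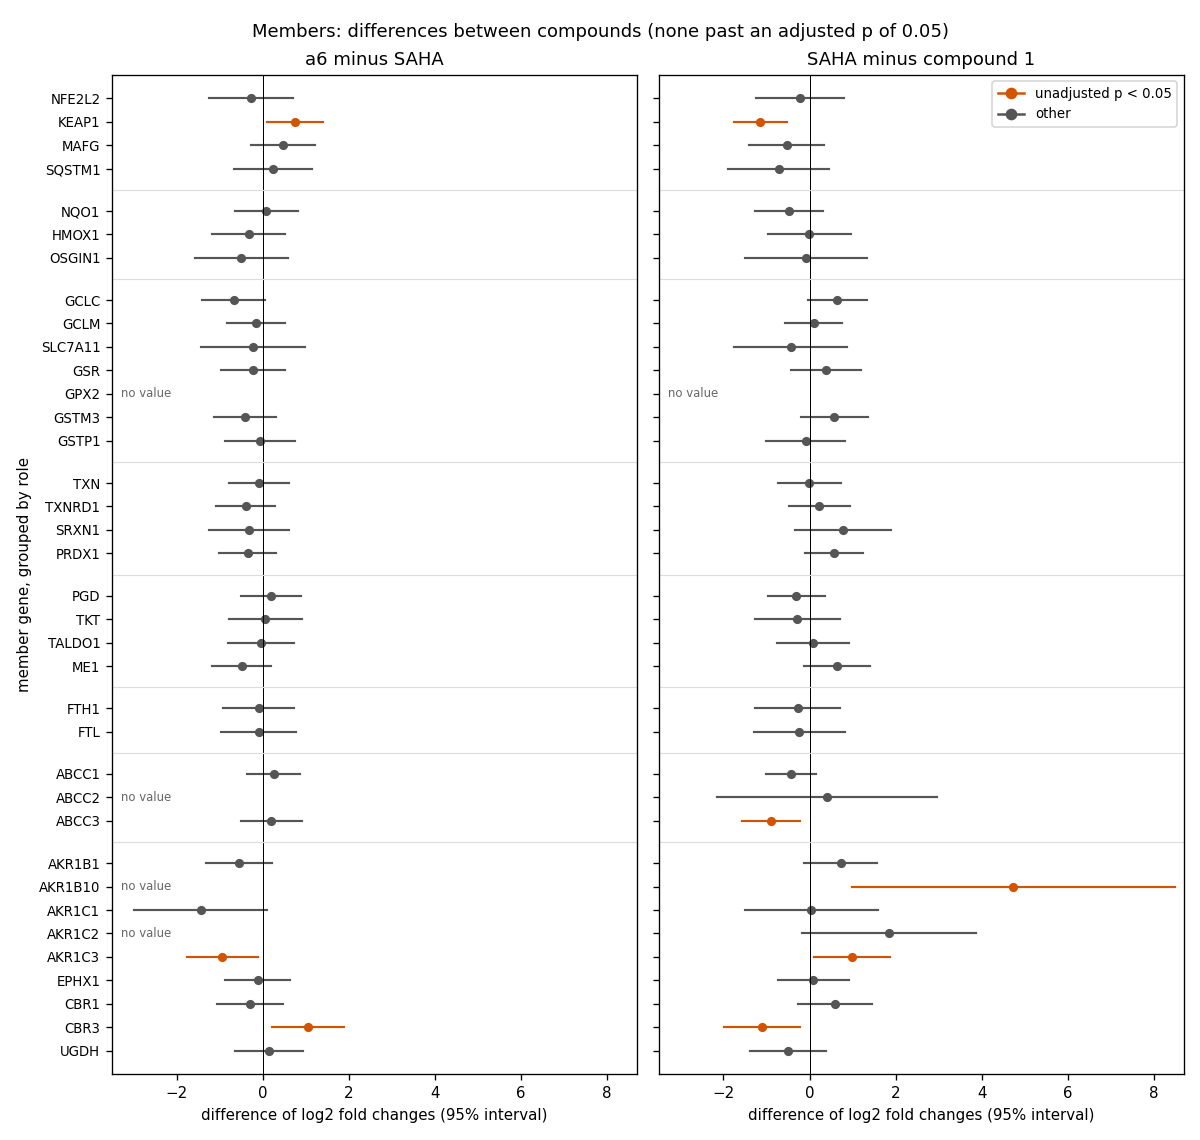
Difference of deposited log2 fold changes for each member, a6 minus SAHA and SAHA minus compound 1, with 95% intervals for independent errors. Orange marks an unadjusted p under 0.05, which 3 and 5 members reach. The share of all genes reaching it was not computed. With independent errors 0 members pass an adjusted p of 0.05.

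Around the members, 7 further lists of the pathway held 144 other genes, of which 133 were measured with SAHA, and 7 rose and 7 fell, 10.5%, where 7.55% of all genes were called. With compound 1, 0 of 138 were called, and with a6 1 of 130, where 0% and 0.583% of all genes were. These shares lie near the background. Among NRF2 regulators and partners, 0 of 15 rose with SAHA and 1 fell, DPP3, a peptidase that competes with NRF2 for KEAP1, at -0.84 (SE 0.28, adjusted p = 0.0395) in the authors' deposited table. Among glutathione synthesis and transfer genes, 1 of 20 rose and 2 fell. The transferase gene GSTA4 averaged 333 with SAHA and 123 in Ctrl, and rose by 1.44 in the authors' deposited table (SE 0.29, adjusted p = 4.75e-05), whereas MGST1 fell by 0.82 (adjusted p = 0.0380) and GSTM1 by 0.90 (adjusted p = 0.0484). Among peroxide and superoxide removal genes, 1 of 26 rose and 2 fell. The secreted peroxidase gene GPX3 rose by 1.14 in the authors' deposited table (SE 0.32, adjusted p = 0.00762), averaging 5688 with SAHA and 2584 in Ctrl. GPX7, a peroxidase of the endoplasmic reticulum, fell by 2.14 (SE 0.53, adjusted p = 0.00188), and MSRA, which repairs oxidized methionine, by 1.00 (SE 0.31, adjusted p = 0.0209), in the authors' deposited table.

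Genes of NADPH supply outside the members included 2 of 15 that fell with SAHA and 0 that rose. Of all genes, 4.53% rose and 3.02% fell with SAHA, so counts of 1 or 2 in such lists say little about a list. NNT, the mitochondrial transhydrogenase that makes NADPH, averaged 372 with SAHA, 1161 with compound 1 and 759.5 with a6, against 1131 in Ctrl of the SAHA table, so the SAHA mean was the lowest. It fell by 1.60 in the authors' deposited table (SE 0.30, adjusted p = 7.58e-06). MTHFD1L, a mitochondrial enzyme of folate metabolism, fell by 1.09 (SE 0.26, adjusted p = 0.00152) in the authors' deposited table. Both also differed in SAHA minus compound 1, NNT by -1.64 (adjusted p = 0.0141) and MTHFD1L by -1.32 (adjusted p = 0.0285). Among iron and ferroptosis genes, 1 of 16 rose and 0 fell. It was SLC40A1, the iron exporter ferroportin, which averaged 125 with SAHA, 18.04 with compound 1 and 37.3 with a6, against 17.6 in Ctrl of the SAHA table. SLC40A1 rose by 2.83 with SAHA in the authors' deposited table (SE 0.45, adjusted p = 8.27e-08) and differed by 2.79 in SAHA minus compound 1 (adjusted p = 0.0482). In the detoxification list, 2 of 23 rose with SAHA and 0 fell, the drug exporter gene ABCG2 at 1.46 (SE 0.45, adjusted p = 0.0233) and ETFDH, of mitochondrial electron transfer, at 0.97 (SE 0.29, adjusted p = 0.0181), in the authors' deposited table. Of the oxidant sources and other stress sensors, 2 of 18 rose with SAHA and 0 fell, PPARGC1A, a coactivator of mitochondrial genes, at 2.25 (SE 0.57, adjusted p = 0.00253) and SESN3, a stress-responsive sestrin, at 1.98 (SE 0.56, adjusted p = 0.00878), in the authors' deposited table.

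**Figure D5:**
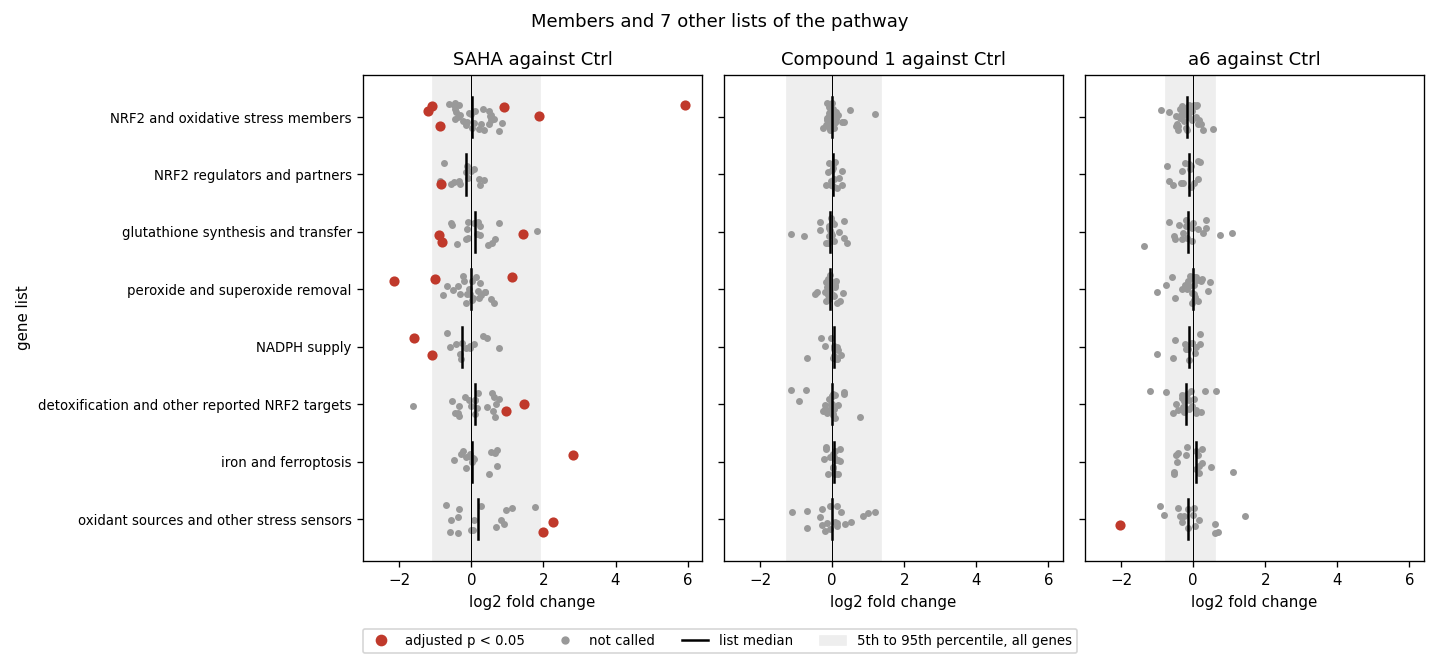
Log2 fold changes against Ctrl of the members and of 7 other pathway lists with SAHA, compound 1 and a6, from the authors' deposited tables. Each point is a gene, red points pass an adjusted p of 0.05, black bars are list medians, and grey bands span the 5th to the 95th percentile of all genes in each table. The list medians lie between -0.26 and 0.17 with SAHA, and AKR1B10 at 5.93 is the farthest point.

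Markers of other cell types moved with SAHA as well. In the authors' deposited table the monocyte marker CD14 rose by 1.81 and CD68, the other measured haematopoietic gene, was at -0.80 without a call. In the authors' deposited table the endothelial genes VWF and KDR rose by 4.03 and 1.56, and the fibroblast gene LUM by 7.03. LUM, like AKR1B10, has a row only because of its level with SAHA, so that it had to differ. The same may hold for VWF. The summed mean normalized counts of the measured markers were 104 with SAHA and 35.7 in Ctrl for 2 of 6 haematopoietic genes, 154 with SAHA and 46.9 in Ctrl for 3 of 5 endothelial genes, and 810 with SAHA and 581 in Ctrl for 3 of 6 fibroblast genes. PTPRC and CD3E, which define leukocytes and T cells, had no row in the SAHA table. Their part in the members' values was not tested. In bulk RNA, a change in the number of cells with a transcript and a change in its amount per cell cannot be told apart.

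The authors also deposited lists of G4-related genes with a number of G4s for each gene, and 4 member entries occur in them. The lists named 723 raised and 440 lowered genes with SAHA, and 326 lowered genes with a6. Of these names, 645 and 399 are among the 18534 genes measured with SAHA, and 250 among the 15255 measured with a6. Each SAHA list held 1 of 35 measured members, which is near that background, and the a6 list 2 of 32, a count too small to read. The compound 1 lists and the list of raised genes with a6 held 0 members. AKR1B10 is in the list of raised genes with SAHA and KEAP1 in that of lowered genes with SAHA, each with 1 G4 in the authors' deposited table. ABCC3, with 5 G4s, and AKR1C3, with 2, are in the list of lowered genes with a6 in the authors' deposited table. Neither is in the authors' deposited list of changed genes for a6, and AKR1C3 had a log2 fold change of -0.02 with a6 in the authors' deposited table (unadjusted p = 0.937). A pattern of 4 runs of at least 3 G with gaps of 1 to 7 bases, on either strand, occurred in 8778 of the 35116 promoter windows of all genes and in 10 of the 36 windows of members. The 9 members with it were FTL, GCLM, GSTP1, KEAP1, MAFG, NFE2L2, NQO1, SQSTM1 and TKT. Of these 9, 1 was called with SAHA and 0 with a6. Of all genes, 7.55% and 0.583% were called, so both counts are near the background.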

How the data were processed

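RNA of 12 libraries (4 groups of 3) was sequenced; the build GRCh38 (hg38), cutadapt and DESeq2 are named per the submitters' processing notes. Not given in the sources used here: the aligner, the read counter, tool versions and whether strand was used. Per the file headers, the authors' deposited comparison tables hold for each gene the mean normalized count of both groups (a signal), the log2 fold change and its standard error, the Wald statistic (a score) and p-values before and after adjustment. The deposited G4-related lists give a G4 count per gene, per the file headers, without the region searched. Columns of values per library used: 0. Checked on the values, the statistic equals fold change over standard error, the adjusted p is a Benjamini-Hochberg adjustment over each table, and the authors' lists of changed genes hold those changed 2-fold or more with an unadjusted p under 0.05 (0 mismatches).

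Calls use the adjusted p of the authors' DESeq2 Wald test, over all genes of a table, at 0.05. Computed here, with Python 3.11.15, pandas 2.3.3, scipy 1.17.1 and statsmodels 0.14.6, were group means (from mean count and fold change, for equal groups), 95% intervals, differences between compounds, levels per kilobase, promoter motifs and the alternatives. The difference test was tested on simulated data. Positions, exon length and GC content are from GENCODE 29 on GRCh38, and promoter windows from RefSeq (GRCh38.p14). RefSeq windows for HMOX1, SLC7A11, ABCC1, ABCC3, FTH1, AKR1B10, PRDX1, GSR and CBR3 were not used here. The members and lists were chosen with earlier results of these data known. Given in full are members called in any comparison and 12 regulators and targets whatever their values; of each other list, up to 3 rising and 3 falling genes with the smallest adjusted p; 1 gene that this rule takes is not reported here. Alternatives were an adjusted p under 0.01, a 2-fold limit, adjustment over all rows, a mean count of at least 10 or 50, centring on the median, removal of a lowess trend on GC content (share 0.3) and, for differences, an error correlation of 0.5 or adjustment within a pair.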

Additional observations from a re-analysis of the deposited data

How the results depend on the processing

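With SAHA, 2 members (KEAP1 and AKR1B10) were called at an adjusted p under 0.01 and 3 (those and CBR3) with the GC trend removed, against 6 as reported, and 5 of 34 without AKR1B10, an alternative chosen after seeing the data. The GC trend moved the share of higher calls over all genes to 70.0% of 1196, against 60.0% of 1399, and a mean count of at least 50 moved it to 46.1%. For differences, an error correlation of 0.5 called 2 members in a6 minus SAHA and 4 in SAHA minus compound 1, and adjustment within the pair called 1 (KEAP1, adjusted p = 0.0329) in SAHA minus compound 1, against 0 in each as reported. The error correlation raised the calls over all genes to 504, against 50, in a6 minus SAHA and to 812, against 148, in SAHA minus compound 1. With a mean count of at least 50, 0 genes of the other lists were called with a6, against 1 as reported. Uncalled values that changed sign were AKR1C2 with compound 1 (-0.095 with the GC trend removed, against 0.037) and AKR1C3 with a6 (0.0088 centred and 0.032 with the GC trend removed, against -0.024). The other 32 counts stayed within 1.5 times, and of 40 alternatives for single members called with SAHA 9 lost the call and 31 kept it. Adjustment over all rows repeats the authors' own adjustment, so under it no call or count could move. With compound 1, 0 genes were called under any setting, so its unmoved counts say nothing about the members. AKR1B10 and AKR1C2 drop out at a mean count of at least 50, and this loss is not among the 40. Genes with a GC value made up 94.0% to 96.7% of the tables.

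No paired analysis was possible because the tables hold no values per library. Leaving out a library and a fit with replicate numbers as a block were not run for the same reason, so no statement here was checked against a single library, and no batch was looked for. Standard errors of the members had a median of 0.30 with SAHA, 0.33 with compound 1 and 0.25 with a6.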

Other observations

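The authors' deposited list of G4-related genes lowered with a6 names 326 genes, of which 118 are in their deposited list of genes lowered with a6 and 208 are not. Of the 326 genes, 250 have a row in the authors' deposited a6 table, 200 of these have a log2 fold change below 0 and 128 an unadjusted p under 0.05. ABCC3 and AKR1C3 are among the 208. In the corresponding SAHA lists, 188 of 723 raised and 148 of 440 lowered names are outside the authors' deposited lists of changed genes.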
